A study of Mus musculus with 12 samples.

Results

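The core circadian clock genes Arntl (also called Bmal1), Clock, Per1, Per2, Cry1, Cry2, Nr1d1, Nr1d2 and Dbp were followed across dendritic cells (DCs) of mouse spleen, on every probe set that carried 1 of these symbols alone. Of the 9 genes, 8 had such a probe set, out of 17097 genes measured in this way, and together they had 14 of the 28898 single-symbol probe sets. Clock had 4 probe sets, Arntl, Per2 and Nr1d2 had 2 each, and Per1, Cry1, Cry2 and Dbp had 1 each. Nr1d1 had none and is not analysed here.

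RNA was measured on 12 Affymetrix arrays in 4 groups of 3. The groups were miR-142 knockout (KO) DCs given lipopolysaccharide (LPS, a bacterial cell wall component that activates DCs), wild-type (WT) DCs given LPS, unstimulated KO DCs and unstimulated WT DCs. All mice were 10-week-old C57BL/6 males, KO and WT being littermates, and DCs were taken by positive selection from single spleens. The sources used here give neither the construct of the KO allele, nor the LPS dose and duration, nor the time of day at collection, so the arrays give single time points with no place in the daily cycle. The sample descriptions speak of T cells, whereas titles, sources and cell type fields speak of DCs.

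DC markers were well detected, with 12 of 14 listed genes measured, none called between genotypes, and a log2 summed signal of 11.05 to 11.70 in KO LPS arrays, 11.62 to 11.77 in WT LPS arrays, 11.57 to 11.66 in unstimulated KO arrays and 11.57 to 11.68 in unstimulated WT arrays. Only 3 of the 12 DC marker means were higher in KO after LPS, and 5 of 12 unstimulated. Summed signals of neutrophil, natural killer (NK) cell and platelet markers were higher in all KO arrays than in all WT arrays within each condition. The log2 sum of 8 of 10 neutrophil markers was 11.08 to 12.58 in KO LPS arrays, 7.52 to 9.76 in WT LPS arrays, 11.16 to 12.79 in unstimulated KO arrays and 7.64 to 9.90 in unstimulated WT arrays, and 3 of the 8 were called higher in KO in each condition. The log2 sum of 9 of 9 NK cell markers was 9.83 to 10.12 in KO LPS arrays, 6.89 to 7.996 in WT LPS arrays, 9.85 to 10.15 in unstimulated KO arrays and 6.70 to 7.86 in unstimulated WT arrays, with 4 of 9 called higher after LPS and 3 of 9 unstimulated. The log2 sum of 4 of 4 platelet markers was 6.81 to 9.22 in KO LPS arrays, 5.78 to 6.71 in WT LPS arrays, 7.03 to 8.72 in unstimulated KO arrays and 5.54 to 6.58 in unstimulated WT arrays, with none called and 4 of 4 means higher in KO in each condition. The 3 measured erythroid markers had 3 of 3 means higher in KO, with none called and overlapping sums. T cell sums (6 of 8 markers, none called) were 6.44 to 6.49 in unstimulated KO arrays, below the 6.66 to 7.01 of unstimulated WT arrays, and overlapped after LPS. B and plasma cell sums (5 of 7 markers) were 8.03 to 8.73 in unstimulated KO arrays, below the 8.81 to 9.21 of unstimulated WT arrays, and overlapped after LPS, with 1 of 5 called lower in KO in each condition. Macrophage and monocyte markers (7 of 8 measured, none called) had 1 of 7 means higher in KO after LPS and 3 of 7 unstimulated, with overlapping sums. Plasmacytoid DC markers (2 of 4 measured, none called) had 1 of 2 means higher in KO after LPS and 0 of 2 unstimulated, with overlapping sums. No marker of any list was at 0. KO LPS array 2 stood apart, correlating at 0.930 to 0.956 with the other 11 arrays, which correlated at 0.962 to 0.990 among themselves. Its Gapdh signal was 3.04 log2 units higher on the 3′ probe set than on the middle one, against 1.53 to 1.86 on the other arrays.

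In the mammalian clock, BMAL1 (the protein of Arntl) and CLOCK bind E-boxes as a pair and switch on the Per and Cry genes, whose proteins return to the nucleus and block them. The same pair switches on Nr1d1 and Nr1d2, which encode the REV-ERB repressors of Arntl, and Dbp, which encodes an activator of genes with D-boxes. Immune cells such as macrophages run this loop, and REV-ERBs are known there to hold down inflammatory genes. miR-142 is a microRNA of blood-forming cells, and its 3p strand has been reported to target Bmal1 in mouse cells, which makes the level of Arntl in KO cells the natural first comparison.

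The mature strands of miR-142, the gene named in the KO label, are shown because their seeds (bases 2 to 8, in capitals) decide which transcripts they pair with. Both lie on the plus strand of chromosome 11 (GRCm38.p6, RefSeq), the 3p strand at chr11:87756903-87756925 and the 5p strand at chr11:87756867-87756887, and they do not share a seed.
miR-142a-3p: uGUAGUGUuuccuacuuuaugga
miR-142a-5p: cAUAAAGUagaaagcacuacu

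RefSeq promoter windows of 250 bases before to 50 after the gene start were given for 8 of the 9 genes (12 windows, none for Per2). The E-box CACGTG stood in 2 of the 12 windows, those of Per1 and Cry1, against 7.15% of all 32851 windows searched on both strands. The related letters CACGTT stood in 3 of 12 (Cry1, Cry2 and Nr1d1), against 4.68%. The REV-ERB and ROR half-site AGGTCA stood in 4 of 12 (Arntl, Clock, Per1 and Nr1d2), against 16.26%. Neither the D-box (TTATGTAA or TTACGTAA, 1.06% of all windows) nor the cAMP response element (TGACGTCA, 1.79%) was found in these 12. The stretches below show some of these matches, which were found by letters alone. Whether clock proteins bind there was not measured here. The stretches are given 5′ to 3′ on the strand of their gene, with the motif in capitals. They lie at chr11:69098768-69098803 on the plus strand (Per1, motif 166 bases before the start), at chr10:85185094-85185129 on the minus strand (Cry1, 60 bases before), at chr2:92434215-92434250 on the minus strand (Cry2, 166 bases before, motif on the opposite strand) and at chr14:18239163-18239198 on the minus strand (Nr1d2, 77 bases before).
Per1 E-box: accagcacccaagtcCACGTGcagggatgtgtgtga
Cry1 E-box: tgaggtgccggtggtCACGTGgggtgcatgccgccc
Cry2 E-prime box: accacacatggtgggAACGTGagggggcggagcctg
Nr1d2 ROR half-site: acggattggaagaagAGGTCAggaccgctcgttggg

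The deposited values are log2 signals from RMA, the usual normalisation of Affymetrix arrays, so a difference of 1 is a doubling. Errors after ± on a difference are moderated standard errors from 1 limma fit over all 28898 probe sets with 3 arrays per group, and a probe set was called at a Benjamini-Hochberg adjusted p under 0.05. No clock probe set was called between KO and WT, either unstimulated (0 of 14, against 0.163% of all probe sets) or after LPS (0 of 14, against 0.322%). Averaging over both stimulations gave 0 of 14, against 2.12%. LPS against unstimulated gave 0 of 14 in KO (0.301% of all probe sets) and 0 of 14 in WT (0.128%), and the difference between these LPS effects (KO minus WT) gave 0 of 14, with 0% of all probe sets called. At an unadjusted p under 0.05, 10 of the 84 tests of clock probe sets passed (11.9%), against 9.46% of the same 6 tests over all probe sets, and the lowest adjusted p among the 84 was 0.224.

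Levels were low to moderate. The median of all single-symbol values was 2.87, and 6 of the 14 clock probe sets had their highest group mean under it, including the sole probe set of Dbp, 1 of 2 for Arntl and both for Per2. On 7 of the 14 the mean of the 12 arrays was under it. These include the brighter Arntl probe set (2.79), on which only the KO LPS mean (2.99) was above the median. Small changes of such dim probe sets are hard to see on an array. The plot of all values by group shows the arrays of each probe set on a common span.

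**Figure D1:**
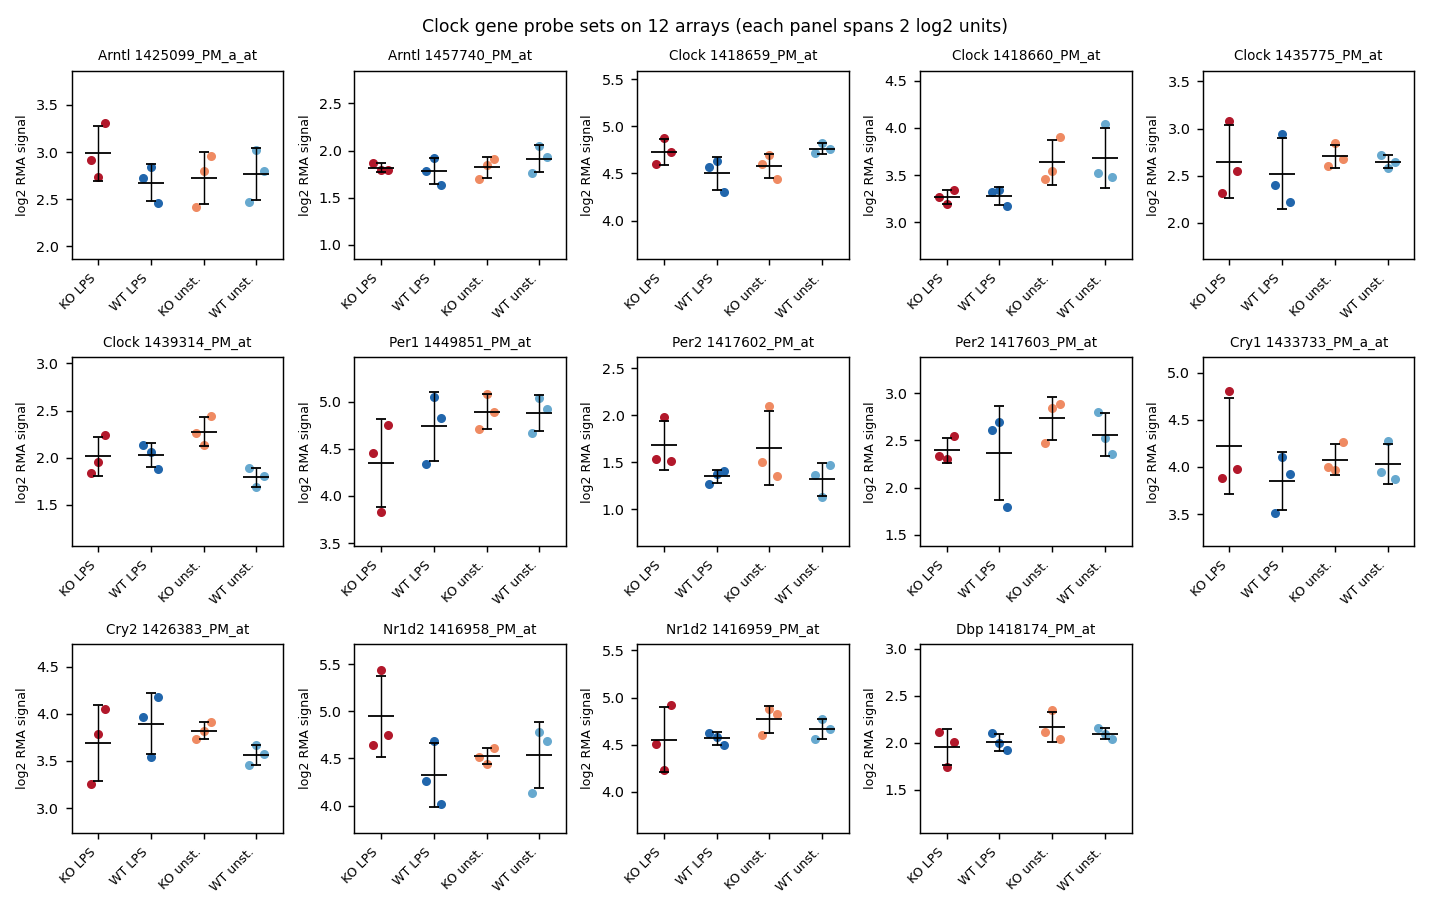
Log2 RMA signal of the 14 clock gene probe sets on the 12 arrays, 1 panel per probe set, with KO LPS, WT LPS, unstimulated KO and unstimulated WT left to right. Points are arrays, and bars give the mean ± SD of 3. Groups overlap in most panels, and the unstimulated KO arrays of Clock 1439314_PM_at (2.13 to 2.44) lie above the unstimulated WT arrays (1.69 to 1.89).

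The activators did not differ detectably between genotypes. Arntl (chromosome 7) on its brighter probe set, 1425099_PM_a_at, had log2 signals of 2.91, 2.74 and 3.31 in KO LPS arrays, 2.73, 2.84 and 2.46 in WT LPS arrays, 2.42, 2.80 and 2.96 in unstimulated KO arrays and 2.47, 3.02 and 2.80 in unstimulated WT arrays. The groups overlapped in each comparison, and the highest value was KO LPS array 3. KO minus WT was 0.31 ± 0.19 after LPS (limma adjusted p = 0.490) and −0.04 ± 0.19 unstimulated (adjusted p = 0.984). Averaged over both stimulations the difference was 0.14 ± 0.13 (adjusted p = 0.674), and its 95% interval spans 0.897-fold to 1.35-fold. That interval lies inside a doubling or halving, but smaller changes within it are not excluded. After LPS the interval was wider, from 0.931-fold to 1.65-fold. The difference after LPS depended on single arrays, being 0.44 without KO LPS array 2 (95% interval 0.01 to 0.86, adjusted p = 0.505), 0.15 without KO LPS array 3 (adjusted p = 0.748) and 0.20 without WT LPS array 3 (adjusted p = 0.789). In bulk RNA, a different share of cells of a type and a different amount of RNA per cell cannot be told apart. The KO arrays also held more signal of neutrophil, NK and platelet markers. Their unstimulated sums of T and of B and plasma cell markers were lower, although 2 of 6 and 3 of 5 of these means were higher in KO. The part of other cells in these values was not tested.

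The second Arntl probe set, 1457740_PM_at, was dimmer, at 1.87, 1.79 and 1.79 in KO LPS arrays, 1.79, 1.92 and 1.64 in WT LPS arrays, 1.70, 1.85 and 1.91 in unstimulated KO arrays and 1.76, 2.05 and 1.93 in unstimulated WT arrays. All groups overlapped. It differed between KO and WT by 0.04 ± 0.11 after LPS and −0.09 ± 0.11 unstimulated, with adjusted p = 0.919 and 0.903.

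Clock, the partner of BMAL1, had 4 probe sets that did not move together. The brightest, 1418659_PM_at, was at 4.60, 4.87 and 4.72 in KO LPS arrays, 4.56, 4.63 and 4.31 in WT LPS arrays, 4.60, 4.69 and 4.44 in unstimulated KO arrays and 4.71, 4.82 and 4.76 in unstimulated WT arrays. The unstimulated KO arrays all lay below the unstimulated WT arrays, while after LPS the genotypes overlapped. The genotype difference (KO minus WT) was −0.19 ± 0.12 unstimulated (adjusted p = 0.744) and 0.23 ± 0.12 after LPS (adjusted p = 0.406).

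The dimmest Clock probe set, 1439314_PM_at, ran the other way. It was at 1.84, 1.96 and 2.24 in KO LPS arrays, 2.13, 2.06 and 1.88 in WT LPS arrays, 2.26, 2.13 and 2.44 in unstimulated KO arrays and 1.89, 1.69 and 1.81 in unstimulated WT arrays. Here the unstimulated KO arrays all lay above the unstimulated WT arrays. KO minus WT was 0.48 ± 0.13 unstimulated, with an unadjusted p of 0.0026 and an adjusted p of 0.232 from limma, and −0.01 ± 0.13 after LPS (adjusted p = 0.978). The remaining Clock probe sets, 1418660_PM_at and 1435775_PM_at, had genotype differences between −0.05 and 0.13 in both conditions, with overlapping groups. Across the 4 probe sets, then, the unstimulated genotype difference of Clock had no common direction.

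**Figure D2:**
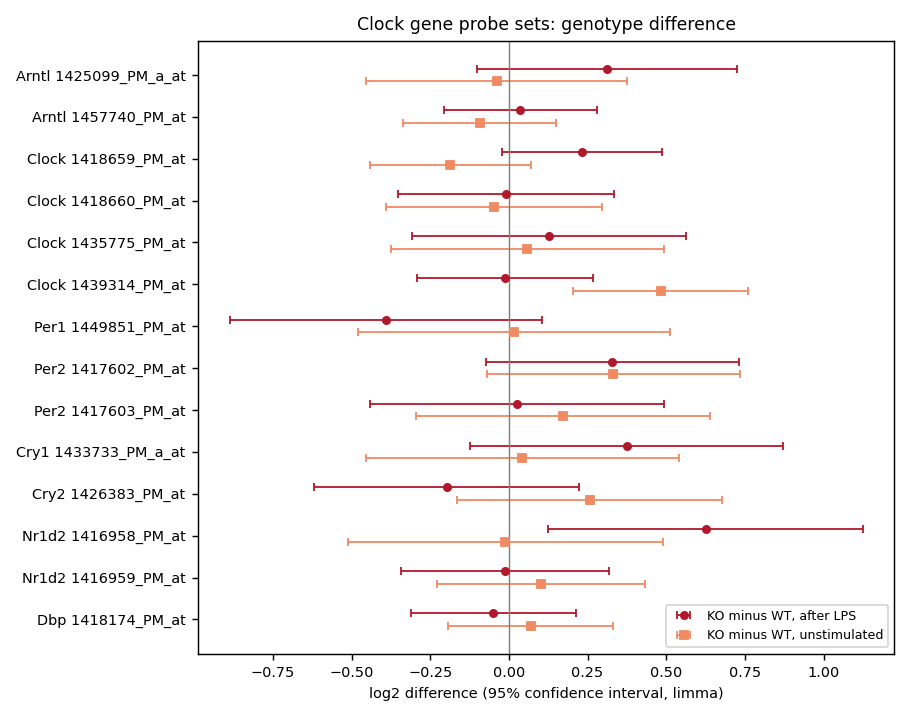
KO minus WT log2 difference of each clock probe set after LPS (circles) and unstimulated (squares), with 95% confidence intervals from limma. Intervals of 2 points leave out 0 before adjustment, Clock 1439314_PM_at unstimulated (0.48) and Nr1d2 1416958_PM_at after LPS (0.62), and none was called.

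Among the genes of the PER and CRY repressors, which close the loop, no genotype difference in RNA passed the adjusted threshold. Protein of the clock genes was not measured here. Per1 (1449851_PM_at) was at 4.46, 3.83 and 4.75 in KO LPS arrays, 4.34, 5.05 and 4.83 in WT LPS arrays, 4.71, 5.08 and 4.89 in unstimulated KO arrays and 4.67, 5.04 and 4.93 in unstimulated WT arrays. KO LPS array 2 was the lowest of the 12, and the groups overlapped in each comparison. Between genotypes, Per1 differed (KO minus WT) by −0.39 ± 0.23 after LPS (adjusted p = 0.468), −0.13 without KO LPS array 2 (adjusted p = 0.906), and 0.02 ± 0.23 unstimulated (adjusted p = 0.992).

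Per2 was measured on 2 dim probe sets. On 1417603_PM_at it was at 2.33, 2.30 and 2.55 in KO LPS arrays, 2.61, 2.69 and 1.80 in WT LPS arrays, 2.47, 2.84 and 2.89 in unstimulated KO arrays and 2.80, 2.53 and 2.35 in unstimulated WT arrays, with overlapping groups. On 1417602_PM_at it was at 1.53, 1.98 and 1.52 in KO LPS arrays, 1.27, 1.37 and 1.41 in WT LPS arrays, 1.504, 2.09 and 1.36 in unstimulated KO arrays and 1.36, 1.13 and 1.47 in unstimulated WT arrays. On this second probe set the KO LPS arrays all lay above the WT LPS arrays, and both KO arrays numbered 2 were the highest. KO minus WT averaged over stimulations was 0.33 ± 0.13 there (unadjusted p = 0.0265, adjusted p = 0.239 from limma) and 0.10 ± 0.15 on the brighter probe set (adjusted p = 0.799).

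Cry1 (1433733_PM_a_at) was at 3.89, 4.81 and 3.98 in KO LPS arrays, 3.51, 4.11 and 3.93 in WT LPS arrays, 3.996, 3.97 and 4.26 in unstimulated KO arrays and 3.95, 4.28 and 3.87 in unstimulated WT arrays. KO LPS array 2 was the highest of the 12 and the groups overlapped. For Cry1 the genotype difference (KO minus WT) was 0.37 ± 0.23 after LPS (adjusted p = 0.490), 0.08 without KO LPS array 2 (adjusted p = 0.942), and 0.04 ± 0.23 unstimulated (adjusted p = 0.984).

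Cry2 (1426383_PM_at) was at 3.26, 3.78 and 4.05 in KO LPS arrays, 3.97, 3.54 and 4.17 in WT LPS arrays, 3.73, 3.82 and 3.92 in unstimulated KO arrays and 3.46, 3.67 and 3.57 in unstimulated WT arrays. The unstimulated KO arrays all lay above the unstimulated WT arrays, and after LPS the genotypes overlapped. KO minus WT was 0.26 ± 0.19 unstimulated (adjusted p = 0.799) and −0.20 ± 0.19 after LPS (adjusted p = 0.689), which turned to 0.02 without KO LPS array 1, the lowest of the 12.

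Nr1d2, which encodes REV-ERB-beta, was measured on 2 probe sets of similar brightness. On 1416958_PM_at it was at 4.65, 5.44 and 4.75 in KO LPS arrays, 4.26, 4.69 and 4.02 in WT LPS arrays, 4.52, 4.44 and 4.62 in unstimulated KO arrays and 4.14, 4.79 and 4.69 in unstimulated WT arrays. KO LPS array 2 was the highest of the 12, and KO LPS array 1 lay just below WT LPS array 2. KO minus WT after LPS was 0.62 ± 0.23 (unadjusted p = 0.0183, adjusted p = 0.261 from limma) and 0.38 ± 0.20 without KO LPS array 2 (adjusted p = 0.608). On 1416959_PM_at it was at 4.504, 4.24 and 4.92 in KO LPS arrays, 4.63, 4.58 and 4.495 in WT LPS arrays, 4.61, 4.88 and 4.82 in unstimulated KO arrays and 4.56, 4.78 and 4.66 in unstimulated WT arrays. There KO LPS array 2 was the lowest of the 12, and KO minus WT after LPS was −0.01 ± 0.15 (adjusted p = 0.982). It was 0.15 without KO LPS array 2, so that both probe sets were then above 0, and −0.20 without KO LPS array 3. Unstimulated, the genotype differences were −0.01 ± 0.23 and 0.10 ± 0.15 on these probe sets.

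Dbp (1418174_PM_at), the output activator, was dim and flat, at 2.12, 1.74 and 2.01 in KO LPS arrays, 2.10, 1.99 and 1.92 in WT LPS arrays, 2.11, 2.35 and 2.04 in unstimulated KO arrays and 2.16, 2.10 and 2.04 in unstimulated WT arrays. For Dbp the genotype difference (KO minus WT) was −0.05 ± 0.12 after LPS (adjusted p = 0.892), 0.06 without KO LPS array 2, and 0.07 ± 0.12 unstimulated (adjusted p = 0.944).

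Counted over the 14 probe sets, KO minus WT was above 0 on 9 and below 0 on 5 unstimulated, with a median of 0.05 against −0.002 over all probe sets, and above 0 on 8 and below 0 on 6 after LPS, with a median of 0.03 against −0.03. Without WT LPS array 3 the counts after LPS were 5 above and 9 below 0 with a median of −0.04, and without KO LPS array 2 they were 11 and 3 with a median of 0.06. The unstimulated counts were 7 above and 7 below 0 without unstimulated KO array 2, and 12 and 2 without unstimulated WT array 2. The 3 KO and 3 WT arrays did not overlap on 3 of 14 probe sets unstimulated (2 higher and 1 lower in KO), against 16.5% of all probe sets, and on 1 of 14 after LPS (higher in KO), against 17.1%. The 95% interval lay within a doubling or halving on 14 of 14 probe sets unstimulated and on 13 of 14 after LPS. It lay within 0.5 log2 units on 7 of 14 in each, and on the other 7 a change of that size was inside the interval.

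LPS left no clock probe set past the threshold in either genotype. In WT cells LPS minus unstimulated was above 0 on 3 of 14 probe sets and below 0 on 11, with a median of −0.13 against 0.002 over all probe sets. Without WT LPS array 3, which lay below the 12-array mean on 12 of the 14 probe sets, 6 were above and 8 below 0 with a median of −0.05. In KO cells it was above 0 on 5 and below 0 on 9, with a median of −0.09 against −0.02. Those KO counts were 7 and 7 with a median of 0.03 without KO LPS array 1, and 4 and 10 with a median of −0.14 without KO LPS array 2. LPS and unstimulated arrays did not overlap on 2 of 14 probe sets in KO (1 higher and 1 lower after LPS), against 13.5% of all probe sets, and on 2 of 14 in WT (both lower), against 11.7%.

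Clock 1418660_PM_at was lower after LPS in both genotypes without passing the adjusted threshold. It was at 3.26, 3.19 and 3.35 in KO LPS arrays and 3.46, 3.54 and 3.91 in unstimulated KO arrays, and at 3.33, 3.34 and 3.17 in WT LPS arrays and 3.52, 4.05 and 3.48 in unstimulated WT arrays. All 3 LPS arrays lay below all 3 unstimulated arrays within each genotype. The difference was −0.37 ± 0.16 in KO (adjusted p = 0.492) and −0.40 ± 0.16 in WT (adjusted p = 0.895). On the brightest Clock probe set, 1418659_PM_at, LPS arrays lay below unstimulated arrays in WT at −0.26 ± 0.12 (adjusted p = 0.9998), while in KO the difference was 0.16 ± 0.12 (adjusted p = 0.723) with overlapping arrays, and was 0.08 when KO LPS array 2 was left out.

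Per1 gave the largest LPS difference of the 14 probe sets, −0.55 ± 0.23 in KO cells (adjusted p = 0.472 from limma), which was −0.29 without KO LPS array 2 (adjusted p = 0.817). In WT cells it was −0.14 ± 0.23 (adjusted p = 0.9998). Nr1d2 on 1416958_PM_at was the probe set whose KO LPS arrays all lay above the unstimulated KO arrays, at 0.42 ± 0.23 (adjusted p = 0.601), and without KO LPS array 2 this difference was 0.17 (adjusted p = 0.938). Arntl differed by 0.26 ± 0.19 in KO (adjusted p = 0.712) and −0.09 ± 0.19 in WT (adjusted p = 0.9998) on its brighter probe set.

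Array numbers linked LPS and unstimulated arrays within a genotype in the data, although the labels do not say that a number marks 1 mouse. By number 1, 2 and 3, Per1 differed by −0.25, −1.25 and −0.15 in KO and by −0.33, 0.01 and −0.10 in WT. Arntl 1425099_PM_a_at differed by 0.49, −0.06 and 0.35 in KO and by 0.25, −0.18 and −0.34 in WT. Neither gene had 3 differences of one sign in WT, and Per1 had 3 below 0 in KO.

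**Figure D3:**
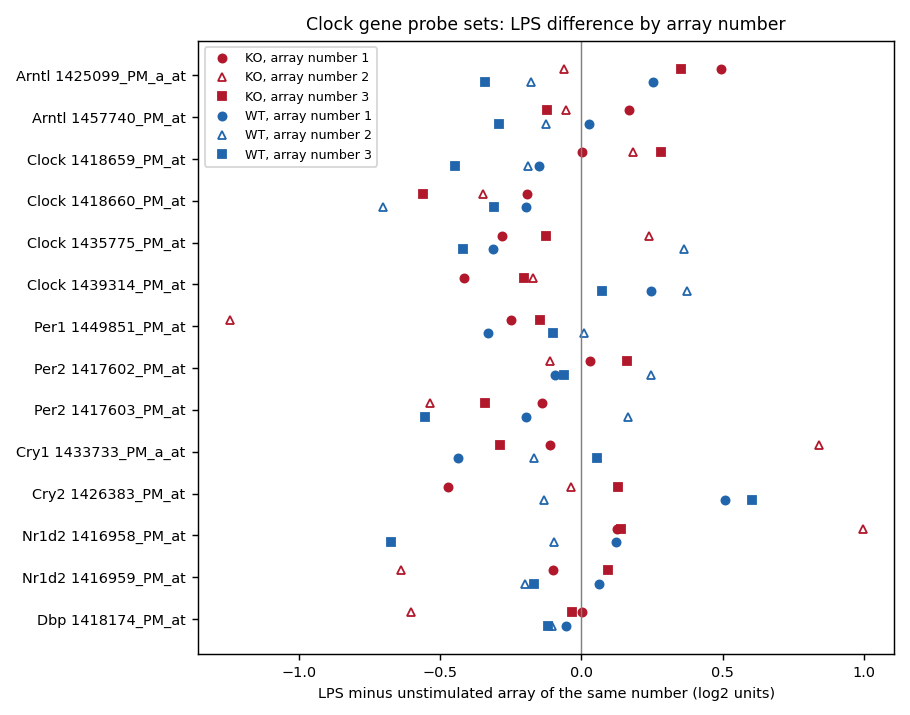
LPS minus unstimulated log2 difference of each clock probe set between arrays of the same number, with KO in red above WT in blue and array number by symbol. Array number 2 of KO lies far from numbers 1 and 3 for Per1 (−1.25), Nr1d2 1416958_PM_at (1.00), Cry1 (0.84) and Dbp (−0.60).

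The test of the difference between the LPS effects (KO minus WT) had wide intervals. Differences were above 0 on 7 of 14 probe sets and below 0 on 7, with a median of 0.02 against −0.03 over all probe sets. The most extreme were 0.64 ± 0.33 for Nr1d2 1416958_PM_at, −0.49 ± 0.18 for Clock 1439314_PM_at, −0.46 ± 0.27 for Cry2 and 0.42 ± 0.17 for Clock 1418659_PM_at, each with an adjusted p of 0.957 from limma. Single arrays moved some of them. Nr1d2 was at 0.39 without KO LPS array 2, and Cry2 at −0.24 without KO LPS array 1. The interval lay within a doubling or halving on 10 of 14 probe sets and within 0.5 log2 units on 2 of 14.

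Probe sets of one gene often ran apart across the 12 arrays, which share RNA within an array and differ in quality between arrays. The correlation was 0.61 between the Arntl probe sets, −0.35 to 0.61 among those of Clock, 0.01 for Per2 and −0.24 for Nr1d2. Without KO LPS array 2 the Nr1d2 value was 0.49. KO LPS array 2 gave the lowest value of the 12 on 3 clock probe sets and the highest on 4, and WT LPS array 3 gave the lowest on 6 and lay below the mean of the 12 arrays on 12 of 14.

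**Figure D4:**
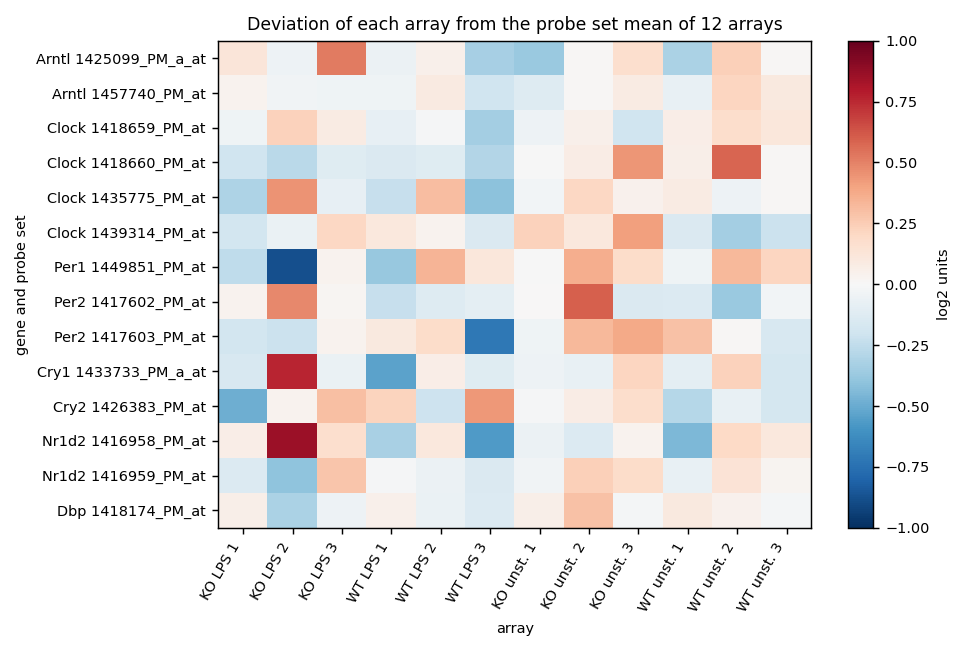
Deviation of each array (columns, KO LPS, WT LPS, unstimulated KO and unstimulated WT left to right) from the mean of the 12 arrays for each clock probe set (rows), in log2 units, red above and blue below the mean. The column of KO LPS array 2 holds 7 of the 28 row extremes, and that of WT LPS array 3 is below the mean on 12 of 14 rows.

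After group means were removed, Arntl and Nr1d2 (brightest probe sets) deviated together across the 12 arrays (r = 0.84, and 0.86 over 11 arrays without KO LPS array 2), as did Per1 and Nr1d2 (r = 0.72, and 0.46 without it) and Arntl and Per1 (r = 0.64, and 0.54 without it). Cry1 and Dbp deviated oppositely (r = −0.75, and −0.50 without it). Other pairs were close only without that array, Per1 and Cry1 at r = 0.72 (−0.20 with it) and Cry2 and Nr1d2 at r = 0.63 (0.35 with it). These correlations are among 28 pairs of genes, all read from the same arrays, which differ in quality. Among 8246 other genes with a signal above the median, those most like Arntl over the 12 arrays were Lat (r = 0.88), Sptlc1 (r = 0.76) and Cenpc1 (r = 0.74).

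Other genes of the clock were read from a list of 39 partners, competitors, modifying enzymes, corepressors and outputs, of which 32 had a single-symbol probe set. None of the 32 was called in any of the 6 comparisons. Of all probe sets, 2.12% were called in the averaged comparison and at most 0.322% in each other one. KO minus WT averaged over stimulations was above 0 for 18 and below 0 for 14, with a median of 0.02 against −0.02 over all probe sets, and 7 were higher and 0 lower at an unadjusted p under 0.05, against 15.97% of all probe sets in either direction.

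The largest averaged differences over all 12 arrays were those of Usp2, Klf10, Ppp1ca and Gpam. Usp2, a deubiquitinating enzyme that acts on clock proteins, was at 3.31, 4.45 and 3.31 in KO LPS arrays, 2.99, 2.67 and 2.92 in WT LPS arrays, 3.32, 4.40 and 3.23 in unstimulated KO arrays and 2.92, 3.18 and 2.68 in unstimulated WT arrays. All KO arrays lay above all WT arrays, and both KO arrays numbered 2 stood well above the other KO arrays. The averaged difference was 0.78 ± 0.23 (adjusted p = 0.115), and 0.59 ± 0.18 without KO LPS array 2. Klf10, a clock-controlled transcription factor, was at 5.84, 6.04 and 6.21 in KO LPS arrays, 5.47, 5.91 and 5.40 in WT LPS arrays, 5.81, 6.48 and 6.01 in unstimulated KO arrays and 5.39, 5.76 and 5.34 in unstimulated WT arrays. Its KO arrays lay above the WT arrays unstimulated and overlapped them after LPS, with an averaged difference of 0.52 ± 0.14 (adjusted p = 0.0720).

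Ppp1ca, the catalytic subunit of a phosphatase that acts on PER proteins, was at 5.34 on KO LPS array 2 and between 7.001 and 7.59 on the other 11 arrays. Its averaged difference was −0.39 ± 0.24 (adjusted p = 0.466), and −0.11 ± 0.10 without that array (adjusted p = 0.652), where it ranked 14 of the 32 by size. Gpam, an enzyme of triglyceride synthesis with rhythmic expression in liver, differed by 0.32 ± 0.13 (adjusted p = 0.251), and by 0.22 without KO LPS array 2. With array number as a fixed block over all arrays, Klf10 and Usp2 passed the threshold in limma, with adjusted p = 0.0136 and 0.0375. In that setting 1267 of all 28898 probe sets were called in the averaged comparison, against 614 without the block. That block ties KO to WT arrays of one number, a tie that the labels do not state and that was not tested. With pairs within a genotype as a random block, Klf10 and Usp2 were not called (adjusted p = 0.102 and 0.143). Number 2 arrays of KO were high for Usp2 and for Per2 1417602_PM_at both with and without LPS.

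**Figure D5:**
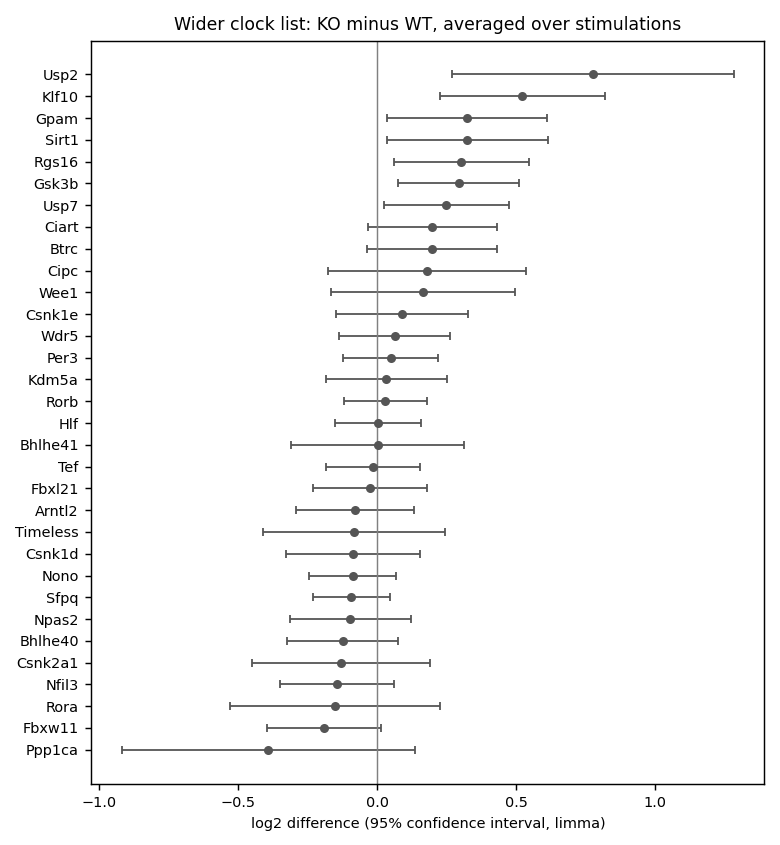
KO minus WT log2 difference averaged over both stimulations for the 32 measured genes of the wider clock list, 1 probe set per gene, with 95% confidence intervals from limma, ordered by difference. Usp2 (0.78) and Klf10 (0.52) are at the top and Ppp1ca (−0.39) at the bottom, and none was called.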

How the data were processed

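RMA was used by the authors to make the deposited log2 signals per probe set, per the submitters' processing notes, in a version not given in the sources used here. Per the labels' protocols, amplification with WT-Ovation Pico started from oligo(dT) and random primers. Array medians ran from 2.65 to 2.72. Of 45141 probe sets, 104 controls, 551 with several symbols and 15588 without a symbol here were left out, and 28898 were tested without a filter on dim ones. The number of arrays limits the precision.

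The deposited log2 values were fitted in R 4.3.3 with limma 3.58.1 (lmFit, eBayes at default settings, 4 group means, 8 residual degrees of freedom, 12.4 after moderation), and p-values were adjusted (Benjamini-Hochberg) over all probe sets within each of 6 contrasts. Samples were grouped by the labels' genotype and stimulation. P-values set each difference against the spread between arrays within groups, which limma moderates with that of all probe sets. They treat arrays as independent, whereas an LPS and an unstimulated array may share a mouse. The members and lists were chosen with earlier results of these data known.

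All members were named on all single-symbol probe sets. From the wider list, genes called in any contrast and the 4 with the largest averaged difference were named, and Fbxw11, which was named for a call under 1 alternative, falls outside this rule and was chosen after its values were seen. The brightest probe set stood for a gene where 1 was needed, and likeness was listed for Arntl only.

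Pairing was checked in the data: after removal of group means, LPS and unstimulated arrays of the same number within a genotype correlated at 0.220 to 0.387 (6 pairs), and different numbers at −0.292 to −0.047, which is lowered by the removal of group means. Numbers were therefore used as pairs within a genotype in alternatives, the random block with statmod 1.5.0 having a consensus correlation of 0.162. Same-numbered KO and WT arrays correlated at −0.004 to 0.197, with 4 of 6 under 0.1. Different-numbered KO and WT arrays were not set beside them, so an effect shared by number across genotypes was not tested. The fixed block by number over all arrays was run only as an alternative. Other alternatives were 1 probe set per gene, a filter on dim probe sets (at least 1 group mean at or above 2.87), a variance trend, array weights, quantile normalisation, fits of only the groups compared, and leaving out each array. Levels of Mir142 were not analysed here, so the KO labels have no check.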

Additional observations from a re-analysis of the deposited data

Results flagged for a closer look

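Clock had LPS differences of opposite sign in KO and WT on 2 of its 4 probe sets, picked out because all 3 same-numbered differences of KO moved one way and all 3 of WT the other. On 1418659_PM_at, LPS minus unstimulated was 0.002, 0.18 and 0.28 in KO and −0.15, −0.19 and −0.45 in WT, so that the LPS effects differed (KO minus WT) by 0.42 ± 0.17. On 1439314_PM_at the directions were turned round, at −0.42, −0.17 and −0.20 in KO and 0.24, 0.38 and 0.07 in WT, with a difference of −0.49 ± 0.18. The difference itself did not pass in limma on either probe set (unadjusted p = 0.0267 and 0.0180, adjusted p = 0.957 for both). These p-values draw on the same values by which the 2 probe sets were picked, so they give no separate support. Of the differences used for the pick, 0.002 was near 0. The 2 probe sets measure the same gene and disagreed in sign, and the cause was not tested.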

How the results depend on the processing

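Under 21 alternative settings, 12 of which left out 1 array, 0 of 1622 values of the clock probe sets were called. None moved by 1 within-group SD or more, a limit that few of these settings could reach. The variance trend, the blocks, 1 probe set per gene, the dim filter and fits of only the groups compared leave the differences themselves unchanged. Leaving out an array changes only contrasts that use its group, and moves a mean of 3 only in part. The sign differed from that reported for 100 of the 1622, a total that includes the values that could not change. The lowest adjusted p was 0.105, for Clock 1439314_PM_at between unstimulated KO and WT with array weights. With the replicate block, same-numbered arrays within a genotype as a random block, the same difference was 0.48 with an adjusted p of 0.201, and no block changed a call of a clock probe set. In the wider list 3 values passed under an alternative, Klf10 and Usp2 with the fixed block over all arrays, as given above, and Fbxw11 between KO and WT after LPS without KO LPS array 3 (−0.55, adjusted p = 0.0414, against −0.39 and 0.240 with it). Calls over all 28898 probe sets also rose in these settings, to 1267 from 614 (averaged, fixed block) and to 511 from 93 (after LPS, without KO LPS array 3).

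Counts of called probe sets over the whole table depended on the setting. Against 47 (KO and WT unstimulated), 93 (after LPS) and 614 (averaged), array weights gave 202, 138 and 1136, the fixed block over all arrays gave 222, 373 and 1267, and leaving out 1 array gave 6 to 246, 2 to 511 and 260 to 1243. The random block gave 406 for the averaged comparison. For LPS against unstimulated, 87 in KO and 37 in WT, array weights gave 155 and 79, the random block 154 and 74, the fixed block within genotype 198 and 106, the fixed block over all arrays 135 and 80, and leaving out 1 array 42 to 134 and 11 to 104. Fits of only the groups compared gave 115 for KO and WT unstimulated, 0 after LPS, 8 for LPS in KO and 78 for LPS in WT, and 1 probe set per gene gave 20 for LPS in WT. The difference of LPS effects had 0 calls in each setting (3.95% of probe sets had an unadjusted p under 0.05). The cause of these moves was not tested. Of the 14 probe sets, 6 had all group means under the median of all values, which limits what they can show.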

Other observations

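A further probe set, 1457350_PM_at, carries the symbols Per2 and 9830107B12Rik together and was in no comparison. It was at 3.31, 3.63 and 3.22 in KO LPS arrays, 3.15, 2.70 and 3.25 in WT LPS arrays, 3.28, 3.38 and 3.15 in unstimulated KO arrays and 3.24, 2.95 and 3.20 in unstimulated WT arrays. The genotypes overlapped in both conditions, and the KO arrays numbered 2 were again the highest.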
